A study of Mus musculus with 16 samples.

Results

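The genes described here encode the Bcl2 family, the proteins that decide whether the outer mitochondrial membrane is opened during apoptosis. The list names Pmaip1, Bbc3, Bax, Bak1, Bcl2, Bcl2l1, Bcl2l11, Mcl1, Bad and Bid, and rows were taken by symbol from a table of 13101 genes. That table held 8 of the 10, and Bax and Bbc3 were not analysed here. Pmaip1 was selected on its measured rise in Tex10-deficient MI spermatocytes, so its levels in that cell type are given as a description without a test.

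Poly(A)-enriched RNA had been sequenced from 4 cell populations of the mouse testis, which the labels call spermatogonia, MI spermatocytes, MII spermatocytes and spermatids. The mice were C57BL/6J males aged 8 weeks and were either wild type (WT) or Tex10f/-; Stra8iCre, that is, with a floxed and a null allele of Tex10 and a Cre recombinase under the Stra8 promoter. That promoter drives Cre in spermatogonia, so recombination is limited to the germ line and its somatic neighbours carry the unrecombined floxed and null alleles. Each of the 8 combinations of genotype and cell type had 2 libraries, 16 in all, and the labels do not say whether the 2 came from separate animals, so the p-values measure the spread between libraries, which may be technical. The sources used here give no method of cell purification.

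In the intrinsic pathway, Bcl2, Bcl2l1 (Bcl-xL) and Mcl1 hold the pore-forming effectors Bax and Bak1 in check. BH3-only proteins release that hold by binding the protective members, and some of them also activate the effectors directly. Pmaip1 (Noxa) binds mainly Mcl1, Bad binds Bcl2 and Bcl2l1, and Bcl2l11 (Bim) and Bid bind all of the protective members. In the testis this balance removes many spermatogonia and spermatocytes in normal development, and spermatocytes that fail meiotic checkpoints die by apoptosis.

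Some features of the libraries bear on all the values below. Tex10 itself was at 30.9% of the WT mean in Tex10-deficient spermatogonia, 21.1% in MI spermatocytes, 37.4% in MII spermatocytes and 31.0% in spermatids. Each of the 8 Tex10-deficient libraries was below both WT libraries of the same cell type. For 6 of the 8 Tex10-deficient samples the title and the cell type field disagree. Groups follow the titles here. Bcl2 was at 0.304 and 0.357 FPKM in the Tex10-deficient libraries titled MI, beside 0.405 and 0.423 FPKM in WT MI libraries. WT MII libraries had 11.7 and 10.3 FPKM. Not every level sorted by title. In the Tex10-deficient libraries titled spermatogonia, Bcl2 was at 12.6 and 8.57 FPKM. These overlapped the WT MII libraries and lay above the WT spermatogonia libraries, at 3.41 and 3.04 FPKM. FPKM counts sequenced fragments relative to transcript length and to library size, so levels of different genes can be set side by side.

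The libraries titled MII spermatocytes carried much RNA of somatic cells. Summed over all 8 Leydig cell markers looked for, none of them at 0 in this fraction, the level was 1444 and 944 FPKM in WT and 1513 and 1317 FPKM in Tex10-deficient MII libraries, against 30.6 and 22.7 FPKM in WT MI libraries. Insl3, a Leydig cell hormone, alone was at 918 and 463 FPKM in WT MII libraries. The 13 immune cell markers summed to 410 and 749 FPKM in WT MII libraries and to 7.93 and 6.29 FPKM in WT MI libraries. The 12 markers listed for late spermatocytes summed to 330 and 944 FPKM in WT and 142 and 258 FPKM in Tex10-deficient MII libraries. This was below the 2844 and 2721 FPKM of WT MI libraries. WT spermatids had 6974 and 6564 FPKM, so the list does not mark spermatocytes alone. The label MII spermatocytes is therefore used as the name of a fraction. Spermatogonia libraries held immune markers as well, at 478 and 803 FPKM in WT and 508 and 321 FPKM in Tex10-deficient libraries. In such bulk samples, fewer cells of a type and less RNA per cell cannot be told apart.

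Pmaip1 (XLOC_009922, chromosome 18) stood at 9.25 and 6.84 FPKM in the Tex10-deficient MI libraries and at 1.90 and 1.19 FPKM in the WT MI libraries. Both Tex10-deficient values lay above every other library of the series. The ratio of the means was 5.22, and the difference on the log2(FPKM + 1) scale was 1.83 (SE 0.30), given without a test because this contrast chose the gene. In spermatogonia the level was 2.39 and 3.84 FPKM in WT and 2.46 and 2.31 FPKM in Tex10-deficient libraries, and these overlapped. In the MII fraction it was 1.17 and 1.18 FPKM in WT and 0.689 and 1.003 FPKM in Tex10-deficient libraries, so there the Tex10-deficient values were the lower ones. Spermatids had 0.182 and 0.0766 FPKM in WT and 0.173 and 0.690 FPKM in Tex10-deficient libraries, the lowest group means of the 4 cell types. Ordered by mean, Tex10-deficient MI spermatocytes (8.05 ± 1.70 FPKM, SD, n = 2) came first, followed by WT spermatogonia (3.11 ± 1.03) and Tex10-deficient spermatogonia (2.38 ± 0.10), whose ranges overlapped.

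Outside MI spermatocytes, where Pmaip1 could be tested, no genotype difference was detected. The log2 differences were −0.26 in spermatogonia, −0.24 in the MII fraction and 0.32 in spermatids, and their average was −0.06 (SE 0.18, limma adjusted p = 0.94). Mcl1, the main partner of the Noxa protein, had 27.5 and 25.7 FPKM in WT and 17.0 and 26.7 FPKM in Tex10-deficient MI libraries. The Mcl1 libraries of the 2 genotypes overlapped. Pmaip1 transcripts were at 0.544 and 0.256 of the Mcl1 level in the 2 Tex10-deficient MI libraries, against 0.0690 and 0.0461 in the 2 WT MI libraries. This ratio contains the Pmaip1 level that chose the gene, so it is a description and was not tested.

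Some cell markers differed between the same MI libraries. The 11 elongating spermatid markers, none at 0, summed to 253 and 337 FPKM in Tex10-deficient and 203 and 176 FPKM in WT MI libraries, and 9 of 11 were higher, 6 of them without overlap (median 0.76). Of 13 immune markers 11 were higher, 5 without overlap, with sums of 13.4 and 8.44 FPKM against 7.93 and 6.29 FPKM. The 12 late spermatocyte markers summed to 4217 and 2322 FPKM against 2844 and 2721 FPKM, with 2 higher and 5 lower without overlap. None of these markers was called by limma. In spermatids the elongating markers summed to between 6846 and 13794 FPKM, and Pmaip1 was below 1 FPKM in every library. The part of the marked cells in the Pmaip1 difference was not tested.

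**Figure D1:**
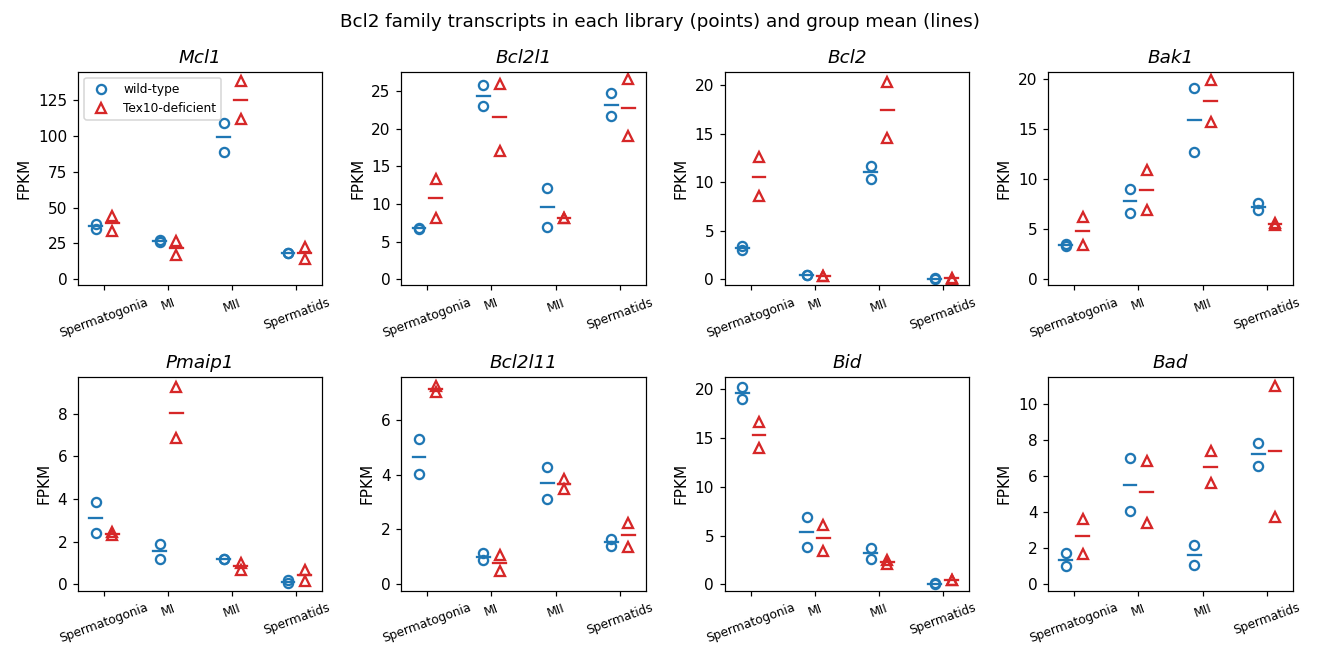
Level of each of the 8 Bcl2 family genes in FPKM, on a linear axis of its own, in every library of the 4 cell types, with circles for WT, triangles for Tex10-deficient libraries and short lines for group means. Pmaip1 in Tex10-deficient MI spermatocytes, at 9.25 and 6.84 FPKM, lies above its other libraries, while Bcl2 and Mcl1 are highest in the MII fraction of both genotypes.

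None of the other 7 members passed the genotype test in MI spermatocytes, where 0.168% of all tested genes were called (22 of 13099, 7 higher and 15 lower). The log2 differences were 0.15 for Bak1, −0.09 for Bcl2, −0.20 for Bcl2l1, −0.20 for Bcl2l11, −0.30 for Mcl1, −0.12 for Bad and −0.15 for Bid. Their median was −0.15 against −0.003 over all tested genes. Intervals were wide with 2 libraries a group: the 95% interval ran from −0.93 to 0.33 for Mcl1 and from −1.12 to 0.88 for Bad. Differences within these intervals are thus not excluded, and larger ones could also go uncalled after adjustment. At an unadjusted p under 0.05, 0 of the 7 were found, beside 5.84% of all genes. Libraries of the 2 genotypes did not overlap for 1 of the 7, Bcl2, which was lower at below 1 FPKM in all 4 libraries, beside 18.4% of all genes that were lower without overlap. In either direction the share of all genes was 34.0%, of which 15.7% were higher.

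The pathway genes around the family gave the same count in MI spermatocytes. Of 66 further genes in 8 lists (other Bcl2 family genes, apoptosome and caspases, voltage-dependent anion channels, inhibitors of apoptosis, death receptors, p53 and its targets, stress and FOXO inducers, turnover of Mcl1 protein), 0 were called by limma and 2 had an unadjusted p under 0.05. Trp53-related genes outside the family, 15 of 19 of them in the table, had a median of −0.18, and 5 of 15 were higher in the Tex10-deficient libraries. Mdm2, the ubiquitin ligase of p53 and itself a p53 target, was at 170 and 246 FPKM in WT and 258 and 290 FPKM in Tex10-deficient MI libraries. Zmat3, another p53 target, was at 7.59 and 15.3 FPKM in WT and 4.20 and 4.43 FPKM in Tex10-deficient MI libraries, a log2 difference of −1.16 (adjusted p = 0.45). It was named after its values were seen. Mdm2 thus lay higher and Zmat3 lower in both Tex10-deficient libraries, and neither passed the test. The other list medians ran from −0.17 for the 12 other Bcl2 family genes, 3 of them positive, to 0.35 for the 3 anion channel genes, all positive.

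**Figure D2:**
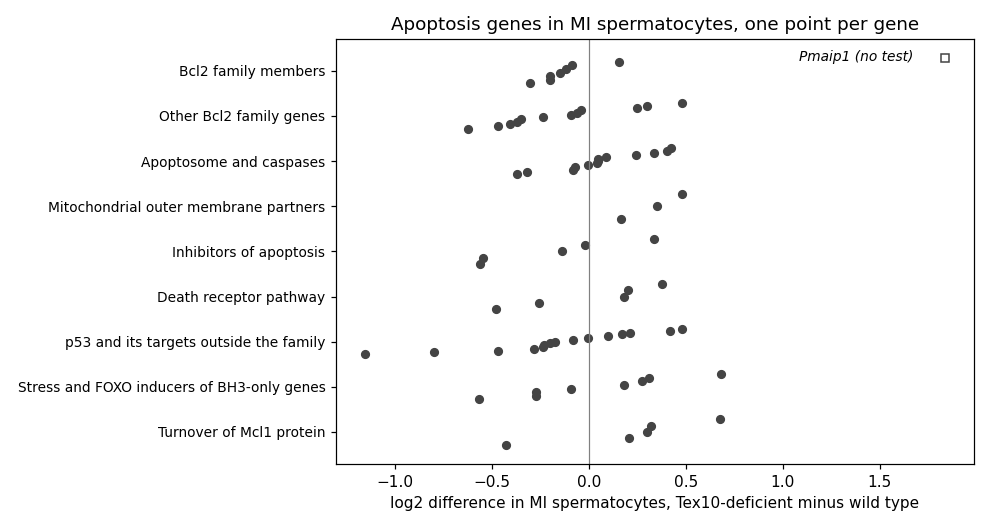
Difference between Tex10-deficient and WT MI spermatocytes on the log2(FPKM + 1) scale for each gene of the Bcl2 family and of the 8 further lists, 1 point per gene. Pmaip1, at 1.83, was chosen for this difference. The 7 other family members lie between −0.30 and 0.15.

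Outside MI spermatocytes 0 of the 8 members were called by limma in spermatogonia, in the MII fraction or in spermatids, where 0.0153%, 0.00763% and 0.00% of all tested genes were called. At an unadjusted p under 0.05 there were 1, 1 and 0 members, beside 6.60%, 13.3% and 2.17% of all genes. Averaged over these 3 cell types, 0 of 8 were called against 0.0458% of all genes, and 2 of 8 had an unadjusted p under 0.05 against 8.94%. The F test for a genotype effect that differs between the 4 cell types called 0 of 7 members against 0.00% of all genes, with 1 of 7 at an unadjusted p under 0.05 against 6.49%. The members with such an unadjusted p were Bcl2 and Bad. Tex10 itself was also not called in spermatogonia (−1.65, limma adjusted p = 0.10), the MII fraction (−1.24, adjusted p = 0.095) or spermatids (−1.66, adjusted p = 0.23). It was called in MI spermatocytes (−2.17, adjusted p = 0.012) and in the average over the 3 other cell types (−1.52, adjusted p = 0.0096). In the single cell types outside MI, differences of that size could thus go uncalled.

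The counts over all genes behind these shares rested on single libraries, while the members' count remained 0 without any 1 library. In spermatogonia 2 genes were called, but 35 without WT spermatogonia replicate 1, 4 without either WT MII replicate, and 0 without WT spermatogonia replicate 2 or either Tex10-deficient spermatogonia replicate. In MI spermatocytes the 22 became 0 without WT MI replicate 2, 1 without either Tex10-deficient MI replicate, 11 without WT MI replicate 1, 14 without either WT spermatid replicate and 47 without either WT MII replicate. In the MII fraction 1 gene was called, but 1253 without WT MII replicate 1, 237 without Tex10-deficient MII replicate 2, 3 without WT MII replicate 2 or Tex10-deficient MII replicate 1, 268 with the replicate number as a block and 190 with quantile normalization. Without WT MII replicate 1, the average over 3 cell types called 360 genes and the F test 255.

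Bcl2 (XLOC_000981, chr1:106538178-106714274, minus strand) was at 12.6 and 8.57 FPKM in Tex10-deficient spermatogonia and at 3.41 and 3.04 FPKM in WT spermatogonia. Both Tex10-deficient libraries lay above both WT libraries, with a ratio of the means of 3.29. The log2 difference was 1.44 (SE 0.29, 95% interval 0.82 to 2.05), with an unadjusted limma p of 0.000197 and an adjusted p of 0.103. It was called with a pseudocount of 5 (adjusted p = 0.035) and with array weights (adjusted p = 0.046). In the MII fraction it was at 14.6 and 20.4 FPKM in Tex10-deficient and 11.7 and 10.3 FPKM in WT libraries, a log2 difference of 0.60 (adjusted p = 0.39). The average over spermatogonia, MII fraction and spermatids was 0.70 (SE 0.17, unadjusted p = 0.00087, adjusted p = 0.33). Exons of Bcl2 share 558 bases with the opposite-strand gene D630008O14Rik.

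Lymphocytes express Bcl2, and markers of T cells were higher beside it in spermatogonia. The 4 T lymphocyte markers in the table, of 8 looked for, summed to 62.1 and 69.7 FPKM in Tex10-deficient spermatogonia and to 54.4 and 16.7 FPKM in WT spermatogonia, and none of them was at 0 there. Cd3g, part of the antigen receptor of T cells, was at 21.6 and 17.6 FPKM in the Tex10-deficient and 4.53 and 2.28 FPKM in the WT libraries (adjusted p = 0.010), whereas Cd3e, its partner chain, overlapped, at 19.6 and 37.0 FPKM against 40.8 and 12.1 FPKM. Ptprc (CD45), which marks all leukocytes, was at 34.8 and 28.7 FPKM against 17.0 and 13.2 FPKM, and was named after its values were seen. The 13 immune cell markers as a list did not rise with it: 3 of 13 were higher, their median was −0.33, and 1 was higher and 5 were lower without overlap. Cd74, of antigen-presenting cells, was at 119 and 56.5 FPKM against 136 and 201 FPKM. The part of these cells in the Bcl2 difference was not tested.

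Bad (XLOC_010318, chr19:6941861-6951899, plus strand), a BH3-only protein regulated by survival kinases, was at 7.39 and 5.61 FPKM in the Tex10-deficient MII fraction and at 2.17 and 1.05 FPKM in the WT MII fraction. The groups did not overlap and the ratio of the means was 4.04. The log2 difference of 1.55 (SE 0.47, 95% interval 0.55 to 2.55) had an unadjusted limma p of 0.0052 and an adjusted p of 0.138. Exons of Bad share 524 bases with Gpr137 on the opposite strand, and the sources used here do not say whether counting used strand. Gpr137 was at 2.39 and 5.92 FPKM in WT and at 1.44 and 1.37 FPKM in Tex10-deficient MII libraries. The part of Gpr137 reads in the Bad difference was not tested. In the other cell types the Bad libraries of the 2 genotypes overlapped.

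In spermatogonia, libraries did not overlap between genotypes for 4 of 8 members: Bcl2, Bcl2l1 and Bcl2l11 were higher and Bid was lower in Tex10-deficient libraries. Over all genes the share was 36.4%, with 16.9% higher and 19.6% lower. Bcl2l1 was at 13.4 and 8.18 FPKM against 6.83 and 6.70 FPKM in WT, and Bcl2l11 at 7.22 and 6.996 FPKM against 5.29 and 4.01 FPKM. Bid was at 14.0 and 16.7 FPKM against 20.2 and 18.99 FPKM. In the MII fraction it was 5 of 8 (Bcl2, Mcl1 and Bad higher, Pmaip1 and Bid lower), beside 35.3% of all genes (17.3% higher, 18.0% lower). In spermatids it was 2 of 8 (Bid higher, Bak1 lower), beside 27.5% (11.7% higher, 15.9% lower). Bid was near the floor there, at 0.479 and 0.419 FPKM against 0 and 0.103 FPKM in WT. With only 8 members, whether their shares differ from those of all genes was not tested. None of the members named here passed the limma test. Cell markers differed in the MII fraction as well. There 0 of 12 late spermatocyte and 0 of 12 round spermatid markers were higher in Tex10-deficient libraries, with medians of −1.22 and −1.34. Of 8 Leydig cell markers 6 were higher, and of 13 immune markers 2. The part of these differences in the members' levels was not tested.

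**Figure D3:**
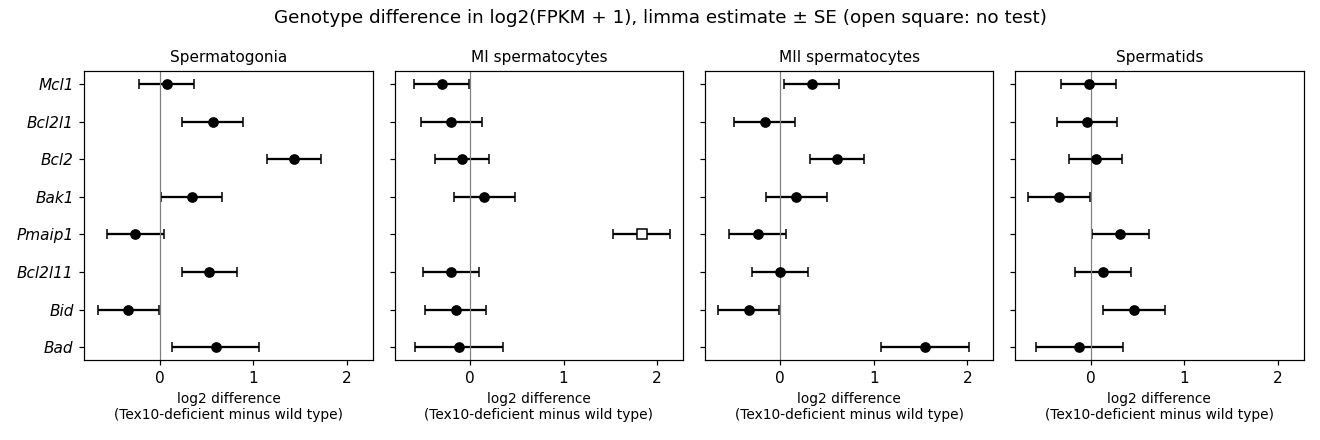
Difference between Tex10-deficient and WT libraries on the log2(FPKM + 1) scale for the 8 members in each cell type, with points for the limma estimate and bars for its SE. Apart from Pmaip1 in MI spermatocytes (open square, 1.83, no test), the points farthest from 0 are Bcl2 in spermatogonia (1.44) and Bad in the MII fraction (1.55).

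Members differed between cell types in many more tests than between genotypes. In WT mice, from spermatogonia to MI spermatocytes 6 of the 7 members tested were called by limma, 3 higher and 3 lower, against 51.9% of all genes (26.3% higher, 25.7% lower). From MI to MII spermatocytes it was 6 of 7, 4 higher and 2 lower, against 57.2% (30.0% higher, 27.2% lower). From the MII fraction to spermatids it was 8 of 8, 2 higher and 6 lower, against 73.8% (38.8% higher, 35.0% lower). From MI spermatocytes to spermatids, a step that leaves out the MII fraction, 1 of 7 was called, as lower, against 42.3% of all genes (19.8% lower). So many genes differed between cell types that the first 3 counts do not set the family apart. In the MII fraction the Bad genotype difference, 1.55 and not called, was about as large as its steps between neighbouring WT groups, 1.45, −1.32 and 1.68. Its step from WT MI spermatocytes to spermatids was 0.37. For Pmaip1 no such comparison is made, because its 1.83 in MI spermatocytes chose the gene.

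Bcl2, Mcl1 and Bid had the largest of these steps, and the 250 bases before their annotated start are shown for that reason. They come from RefSeq on GRCm38.p6, where 7 of the 8 members were matched. Capitals mark matches to the GC box GGGCGG on either strand, which 32.7% of 32851 mouse promoter windows hold. The Mcl1 window (chr3:95658471-95658720, plus strand) has 64.4% G and C and 1 such box, that of Bcl2 (chr1:106714291-106714540, minus strand) has 74.8% and 7, and that of Bid (chr6:120916825-120917074, minus strand) has 63.6% and 3. The letters CCAAT (33.8% of windows), TATAAA (12.4%), TGACGTCA (1.55%) and TGANTCA (6.75%), and the NF-kB (7.25%) and CArG box (1.47%) motifs, had no match on either strand of these 3 windows. A match of letters is no evidence of binding.
Mcl1: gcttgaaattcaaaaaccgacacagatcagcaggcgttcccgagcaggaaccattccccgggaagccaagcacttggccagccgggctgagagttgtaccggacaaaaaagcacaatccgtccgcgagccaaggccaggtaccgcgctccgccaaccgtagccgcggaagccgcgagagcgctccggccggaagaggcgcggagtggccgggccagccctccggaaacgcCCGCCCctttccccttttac
Bcl2: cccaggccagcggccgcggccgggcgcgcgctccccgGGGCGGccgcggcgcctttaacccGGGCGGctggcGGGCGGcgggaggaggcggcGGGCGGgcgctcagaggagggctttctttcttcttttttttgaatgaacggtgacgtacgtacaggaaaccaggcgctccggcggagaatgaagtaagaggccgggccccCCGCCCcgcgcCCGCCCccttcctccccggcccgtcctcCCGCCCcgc
Bid: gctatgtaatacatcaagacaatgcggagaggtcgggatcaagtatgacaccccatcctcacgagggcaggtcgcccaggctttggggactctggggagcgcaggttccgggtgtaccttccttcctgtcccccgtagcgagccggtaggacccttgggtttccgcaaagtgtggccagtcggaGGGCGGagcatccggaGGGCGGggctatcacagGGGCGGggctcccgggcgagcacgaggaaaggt

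Among the protective members, Mcl1 (XLOC_013389, chr3:95658788-95663176, plus strand), a short-lived protein needed for the survival of many cell types, was at 34.9 and 38.6 FPKM in WT spermatogonia, 27.5 and 25.7 FPKM in MI spermatocytes, 109 and 88.8 FPKM in the MII fraction and 18.5 and 17.95 FPKM in spermatids. The MII fraction was the highest by far, and the Tex10-deficient MII libraries, at 112 and 138 FPKM, were higher still. The rise from MI to MII was 1.85 on the log2 scale (adjusted p = 0.00016) and the fall to spermatids −2.37 (adjusted p = 9.6e-06), whereas the step from spermatogonia to MI, −0.45, was not called (adjusted p = 0.21). Immediate early and stress genes, which respond to handling as well as to signals, summed to 9482 and 5275 FPKM in WT MII and 8512 and 7941 FPKM in Tex10-deficient MII libraries, against 441 and 148 FPKM in WT MI libraries. The part of these genes and of the somatic cells in the Mcl1 level was not tested.

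Bcl2 was at 3.41 and 3.04 FPKM in WT spermatogonia, 0.405 and 0.423 FPKM in MI spermatocytes, 11.7 and 10.3 FPKM in the MII fraction and 0.0776 and 0 FPKM in spermatids. It was thus under 1 FPKM in MI spermatocytes and spermatids and highest in the MII fraction. It fell by 1.58 from spermatogonia to MI spermatocytes (adjusted p = 0.00047), rose by 3.09 to the MII fraction (adjusted p = 9.3e-06) and fell by 3.53 to spermatids (adjusted p = 6.4e-07).

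Bcl2l1 (XLOC_012867, chr2:152780668-152831728, minus strand) took the opposite course. It was at 6.83 and 6.70 FPKM in WT spermatogonia, 22.99 and 25.8 FPKM in MI spermatocytes, 6.88 and 12.2 FPKM in the MII fraction and 24.7 and 21.6 FPKM in spermatids. MI spermatocytes and spermatids were the high groups. It rose by 1.71 from spermatogonia to MI spermatocytes (adjusted p = 0.00067), fell by 1.32 to the MII fraction (adjusted p = 0.0035) and rose by 1.24 to spermatids (adjusted p = 0.0033). The fall was lost without MII replicate 1 (adjusted p = 0.05003).

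The most abundant protective transcript therefore differed between the fractions. Mcl1 was the highest of the 3 in 4 of 4 libraries of spermatogonia and 4 of 4 of the MII fraction, both genotypes together. Bcl2l1 was the highest in 2 of 4 MI libraries and 3 of 4 spermatid libraries, with Mcl1 in the others. The spermatid library with Mcl1 highest, Tex10-deficient replicate 2, had more somatic RNA than the other 3, with Leydig cell markers summing to 244 FPKM against 80.1, 16.6 and 22.1 FPKM. Spermatogonia and the MII fraction, where Mcl1 led, also held the somatic RNA described above. Somatic content and germ cell type cannot be told apart here, and the part of somatic RNA in the order was not tested. The ratio of Mcl1 to Bcl2l1 ran from 3.32 to 5.76 in spermatogonia, from 0.656 to 1.57 in MI spermatocytes, from 7.30 to 17.2 in the MII fraction and from 0.537 to 1.18 in spermatids. Bcl2 was the lowest of the 3 in all 4 MI and all 4 spermatid libraries, in 3 of 4 spermatogonia libraries and in 1 of 4 MII libraries.

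**Figure D4:**
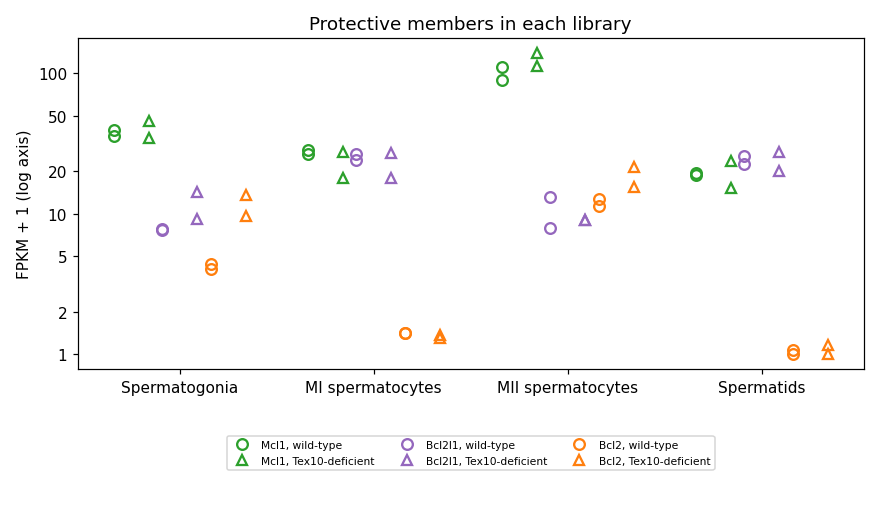
Levels of the protective members Mcl1, Bcl2l1 and Bcl2, as FPKM + 1 on a log axis, in every library by cell type, with circles for WT and triangles for Tex10-deficient libraries. Mcl1 leads in spermatogonia and in the MII fraction, while Bcl2l1 reaches or passes it in MI spermatocytes and spermatids, where the ratio of Mcl1 to Bcl2l1 is 0.656 to 1.57 and 0.537 to 1.18.

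Bak1 (XLOC_009272, chr17:27019810-27029009, minus strand), the pore-forming effector in the table, was at 3.36 and 3.48 FPKM in WT spermatogonia, 6.66 and 8.96 FPKM in MI spermatocytes, 19.1 and 12.7 FPKM in the MII fraction and 7.57 and 6.93 FPKM in spermatids. Spermatogonia were low and the MII fraction high, and MI spermatocytes and spermatids overlapped. It rose by 0.98 to MI spermatocytes (adjusted p = 0.021) and by 0.93 to the MII fraction (adjusted p = 0.026), and fell by 1.01 to spermatids (adjusted p = 0.012). Each of these calls was lost without single libraries, at adjusted p between 0.060 and 0.19. Exons of Bak1 share up to 437 bases with the opposite-strand gene Ggnbp1, a gene at 32.01 and 52.8 FPKM in WT MI spermatocytes and 56.6 and 46.7 FPKM in spermatids.

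Of the BH3-only members, Bid (XLOC_018118, chr6:120891930-120916853, minus strand), which links death receptors to mitochondria once caspase 8 cuts it, fell with differentiation. It was at 20.2 and 18.99 FPKM in WT spermatogonia, 6.86 and 3.87 FPKM in MI spermatocytes, 2.57 and 3.77 FPKM in the MII fraction and 0 and 0.103 FPKM in spermatids. No WT library of a later group exceeded one of an earlier group. It fell by 1.74 to MI spermatocytes (adjusted p = 0.00062) and fell by 1.97 from the MII fraction to spermatids (adjusted p = 9.6e-05), and the step between, −0.58, was not called (adjusted p = 0.14). It was the member called from MI spermatocytes to spermatids, with a fall of 2.56 (SE 0.33, adjusted p = 3.3e-05). Exons of Bid share 628 bases with the opposite-strand gene Bcl2l13, at 3.70 and 4.14 FPKM in WT spermatogonia and 3.67 and 2.89 FPKM in spermatids.

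Bcl2l11 (XLOC_011707, chr2:128126038-128162547, plus strand), a FOXO target and strong activator of the effectors, was at 5.29 and 4.01 FPKM in WT spermatogonia, 1.14 and 0.887 FPKM in MI spermatocytes, 4.27 and 3.10 FPKM in the MII fraction and 1.41 and 1.64 FPKM in spermatids. Like Bcl2, it was high in spermatogonia and the MII fraction and low in the other groups. It fell by 1.48 (adjusted p = 0.00098), rose by 1.21 (adjusted p = 0.0034) and fell by 0.88 (adjusted p = 0.015) along these steps. The last of these fell only by 0.09 with quantile normalization (adjusted p = 0.81) and was lost without MII replicate 1 (adjusted p = 0.11) or spermatid replicate 1 (adjusted p = 0.077). The rise to the MII fraction was also lost with quantile normalization (adjusted p = 0.067).

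Bad, by contrast, was at 1.71 and 1.001 FPKM in WT spermatogonia, 4.05 and 6.997 FPKM in MI spermatocytes, 2.17 and 1.05 FPKM in the MII fraction and 7.86 and 6.57 FPKM in spermatids. Its high groups were those of Bcl2l1, a protein it binds, and also those of Gpr137, which shares exon bases with it on the opposite strand. Gpr137 was at 3.65 and 2.46 FPKM in WT spermatogonia and 15.0 and 19.0 FPKM in MI spermatocytes. The WT MII fraction had 2.39 and 5.92 FPKM of it and spermatids 33.3 and 29.6 FPKM. The part of Gpr137 reads in the Bad course was not tested. Bad rose by 1.45 to MI spermatocytes (adjusted p = 0.018), fell by 1.32 to the MII fraction (adjusted p = 0.026) and rose by 1.68 to spermatids (adjusted p = 0.0048). The rise to MI was lost without spermatogonia replicate 2 (adjusted p = 0.11) or MI replicate 2 (adjusted p = 0.15), and the fall to MII without MI replicate 2 (adjusted p = 0.18) or MII replicate 2 (adjusted p = 0.15).

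Pmaip1 fell by 0.95 from the WT MII fraction to spermatids (SE 0.30, limma adjusted p = 0.011), the only step between neighbouring WT groups that used no MI library. The call was lost with a pseudocount of 5 (−0.27, adjusted p = 0.086), with quantile normalization (−0.20, adjusted p = 0.54) and without spermatid replicate 2 (adjusted p = 0.063). The untested differences were −0.69 from spermatogonia to MI spermatocytes, −0.21 from MI to MII spermatocytes and −1.16 from MI spermatocytes to spermatids.

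In either direction together, genes of the pathway around the family were called between WT cell types at shares near or somewhat above those of all genes. Of the 66 further genes, 41 were called from spermatogonia to MI spermatocytes (15 higher, 26 lower), against 51.9% of all genes (26.3% higher, 25.7% lower). From MI to MII spermatocytes it was 44 (33 higher, 11 lower) against 57.2% (30.0% higher, 27.2% lower). From the MII fraction to spermatids it was 53 (13 higher, 40 lower) against 73.8% (38.8% higher, 35.0% lower). From MI spermatocytes to spermatids it was 27 (6 higher, 21 lower) against 42.3% (22.6% higher, 19.8% lower). The further genes thus leaned to higher from MI to MII spermatocytes and to lower at the other steps, while all genes were split more evenly. Of 13 immune markers, 13 were called lower from spermatogonia to MI spermatocytes, 13 higher to the MII fraction and 12 lower to spermatids. From MI spermatocytes to spermatids 1 was called higher and 0 lower. The part of somatic RNA in the counts of the further genes was not tested. The apoptosome and caspase list, 13 of 15 in the table, had 2 genes called higher and 7 lower at the first step, beside 26.3% and 25.7% of all genes. The 7 included Apaf1, the scaffold of the apoptosome, which fell by 2.05 (adjusted p = 6.64e-05) and was named after its values were seen. The 2 that rose were Cyct, the testis form of cytochrome c, by 3.25 (adjusted p = 0.000162) and Diablo, an antagonist of the inhibitors of apoptosis, by 2.22 (adjusted p = 0.000901). Cyct was at 13.2 and 10.5 FPKM in WT spermatogonia and 140 and 104 FPKM in MI spermatocytes.

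Of 12 other Bcl2 family genes, 4 were called higher and 2 lower from spermatogonia to MI spermatocytes, and 2 higher and 5 lower from the MII fraction to spermatids. These counts are near the 51.9% of all genes at the first step and below the 73.8% at the last. Bcl2l14, a family relative, was at 0.995 and 0.351 FPKM in WT spermatogonia and at 97.9 and 108 FPKM in spermatids, and rose by 3.82 at the last step (adjusted p = 1.92e-05). Vdac2, an outer membrane channel that binds Bak1, was at 20.2 and 13.4 FPKM in spermatogonia, 118 and 83.7 FPKM in MI spermatocytes, 25.6 and 46.9 FPKM in the MII fraction and 308 and 267 FPKM in spermatids. It rose by 2.52 to MI spermatocytes (adjusted p = 0.000225), fell by 1.49 to the MII fraction (adjusted p = 0.00724) and rose by 3.01 to spermatids (adjusted p = 2.16e-05). Xiap, an inhibitor of caspases, was at 14.5 and 18.0 FPKM in spermatogonia, 4.25 and 2.33 FPKM in MI spermatocytes, 20.2 and 19.4 FPKM in the MII fraction and 0.194 and 0.244 FPKM in spermatids, and was thus low in the same 2 groups as Bcl2. Of the genes that turn over Mcl1 protein, Huwe1, a ubiquitin ligase, fell by 2.12 from spermatogonia to MI spermatocytes (adjusted p = 2.19e-05), and Trim17, another, rose by 2.51 (adjusted p = 0.000486).

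Among 8110 abundant genes, the ones most like each member across the 16 libraries were sought by Pearson's r of log2(FPKM + 1), as a description of libraries that share cell types and somatic content. Those nearest Mcl1 were Soga1 (0.991) and Nrp1 (0.990), a receptor of endothelial and other somatic cells. For Bcl2 they were Leprot (0.982) and Lsp1 (0.980), a leukocyte protein, and for Bcl2l11 Tnfaip3 (0.966), an NF-kB feedback gene, and Tmem123 (0.949). Bid was nearest to Mex3a (0.991) and Wdr36 (0.989), Bcl2l1 to Pnpla7 (0.965) and Crnde (0.965), Bak1 to Gab2 (0.954) and Tpcn1 (0.942), and Bad to Atp5j (0.882) and Ndufs4 (0.870), both of mitochondrial respiration. Pmaip1 was nearest to Taf2 (0.883) and Mark2 (0.876).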

How the data were processed

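Gene levels of 16 libraries of mouse testis cells were analysed, 2 for each of 8 groups set by the sample titles. Tools named in the submitters' processing notes are STAR 2.7.6a, Cufflinks 2.2.1, Trim Galore 0.6.3 with cutadapt, and FastQC 0.10.1, and the build is mm10. The sources used here give no annotation, gene filter or strand setting. The deposited values are FPKM to which 1 had been added, judged from their minimum of 1, so 1 was subtracted. Read depth is unknown. FPKM totals ran from 187713 to 533859, genes at 1 FPKM or more from 10044 to 12394, and replicate Spearman correlations from 0.881 to 0.971.

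One limma 3.58.1 fit (R 4.3.3; eBayes with trend, 8 residual degrees of freedom) was run on log2(FPKM + 1) for 13099 genes that reached 1 FPKM in 2 or more libraries, with Benjamini-Hochberg adjustment over all of them and calls at adjusted p under 0.05. This scale understates changes of low genes. The script was tested on simulated data. Python 3.11.15, pandas 2.3.3 and matplotlib 3.10.9 drew the rest. Members and gene lists were chosen with earlier results of these data known. Of each further list, up to 4 genes were eligible by name, those called between genotypes or else the most abundant; for each member, the 2 genes with the highest r. Positions are from GENCODE M21 (GRCm38). Alternatives were other pseudocounts, filters, scalings, variance models, groupings, a replicate block and libraries left out.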

Additional observations from a re-analysis of the deposited data

Results flagged for a closer look

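Pmaip1 was higher in both Tex10-deficient MI libraries than in both WT MI libraries and lower in both Tex10-deficient MII libraries than in both WT MII libraries. The difference between the 2 genotype effects was 2.08 on the log2(FPKM + 1) scale. It was not tested, because Pmaip1 was chosen for its level in Tex10-deficient MI spermatocytes. The MII effect alone, −0.24, was not called (limma adjusted p = 0.82).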

How the results depend on the processing

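Counts of called members between genotypes stayed at 0 in every setting that grouped libraries by title, except in spermatogonia, where Bcl2 made it 1 with a pseudocount of 5 and 1 with array weights. Grouping by the cell type field, which puts titled fractions together that differ in their levels, gave 3 members in MI spermatocytes, 5 in the MII fraction and 5 in the F test, and turned the average Bcl2 difference to −0.44 (adjusted p = 0.71). From WT MI spermatocytes to spermatids the count was 2 in place of 1 with a pseudocount of 0.1 (Bcl2 added) and 2 with quantile normalization (Mcl1 added). Quantile normalization moved the median of all genes from −0.07 to −0.25 (spermatogonia to MI), 0.05 to −0.21 (MI to MII) and −0.01 to −0.17 (MI to spermatids). With single libraries left out, the WT counts ran from 4 to 6, 4 to 6, 6 to 8 and 1 to 1 along the steps to MI, to MII, to spermatids and from MI to spermatids, and the genotype counts were 0. Pmaip1 in MI spermatocytes, untested, was 2.33 with a pseudocount of 0.1, 0.99 with 5, 0.03 by the cell type field and 1.63 to 2.04 without single libraries. The replicate block changed no count of called members (Bcl2 in spermatogonia remained at 1.44). Deviations of same-numbered libraries correlated at 0.20, 0.0038, 0.31 and −0.13 in spermatogonia, MI, MII and spermatids, so the numbers were not taken as pairs. Only 2 libraries a group limit all of these tests.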

Other observations

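Other genes of the pathway lists had levels worth giving, each chosen after its values were seen. Birc3, an inhibitor of apoptosis and NF-kB target, was at 9.25 and 7.08 FPKM in Tex10-deficient spermatogonia against 3.42 and 2.86 FPKM in WT, and at 38.1 and 24.5 FPKM against 24.2 and 14.9 FPKM in the MII fraction. Ddit3, the stress transcription factor CHOP, was at 36.3 and 23.6 FPKM in Tex10-deficient MI libraries and 16.2 and 19.9 FPKM in WT MI libraries. In the Tex10-deficient MII fraction the 2 Ddit3 libraries were far apart, at 39.4 and 7.14 FPKM. None of these differences between genotypes was called.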
